A study of Mus musculus with 5 samples.

Results

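Plasmacytoid dendritic cells, the blood cells known for making large amounts of type I interferon when they sense viral nucleic acid, carry the CD45 isoform B220 and can therefore be enriched together with B cells. The gene set described here holds 9 genes named by symbol as markers of these cells: Siglech, Bst2, Ccr9, Cd209d, Klk1, Runx2, Pacsin1, Lair1 and Atp1b1. Through the platform annotation, 8 of the 9 genes were matched to 22 of the 45101 probe sets on the array. Runx2 had no probe set under its symbol in that table and was not analysed here.

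The arrays were made from B220+ bone marrow cells, enriched with magnetic beads, of FVB mice aged 4 weeks. Of the 5 arrays, 3 were of mice in which both IKKα alleles carry the K44A change that removes kinase activity (IKKαK44A/K44A, called KA/KA), and 2 were of wild-type littermates (WT). IKKα is a kinase that activates the alternative NF-κB pathway, and the series asks how it acts in early B cell formation. No cell type or promoter limits the knock-in in the labels, which do not say whether an array holds 1 mouse or a pool, so p-values measure only the spread between these arrays.

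In the mouse, Siglec-H (Siglech) is an endocytic lectin receptor of plasmacytoid dendritic cells. Tetherin (Bst2) holds budding viruses at the cell surface, is the antigen of antibodies used to stain these cells, and is induced by interferon in many other cell types. Development of the lineage depends on the E protein Tcf4, with Spib, Irf8 and Bcl11a, and is opposed by Id2. The endosomal receptors Tlr7 and Tlr9 and the factor Irf7 carry the signal from nucleic acid to interferon genes.

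The 5 arrays did not hold the same kind of RNA. Values are log2(signal + 16) throughout, which makes fold changes of dim genes look smaller than they are, and each array goes by its label. The first array of each genotype (the arrays labelled WT 1 and KA/KA 1) had bright B-lineage genes and mostly dim lung epithelial genes. Of these, Sftpc, surfactant protein C, read 5.97 and 6.53, while Napsa (11.80 and 11.73) and Hopx (9.87 and 9.29) were bright there too. Sftpc read 15.00, 14.99 and 14.04 on the array labelled KA/KA 2, the array labelled KA/KA 3 and the array labelled WT 2, with all 12 of the lung epithelial genes that passed the filter on dim probe sets higher than in the pair. Rag1, the recombinase of B and T cell precursors, read 12.80 and 12.79 in the first 2 arrays and 4.09 to 4.10 on the others. The labelled bone marrow B220+ cell type is thus borne out by its markers on only 2 of the 5 arrays. These 2 are called the marrow-like pair, and the other 3 the lung-like arrays. The same sets follow from the bacterial poly-A control probes (median log2 signal 13.54 and 12.84 against 7.25, 8.05 and 5.97), by which they were defined for the fits. The control signal thus differs along with the cells, and their parts in a difference between the sets cannot be told apart. Ptprc, which encodes CD45, was read on all 5 arrays (13.57 and 13.74, against 12.62, 13.48 and 11.93). The number of arrays limits the precision, and in such mixed samples fewer cells of a type and less RNA per cell cannot be told apart.

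In the marrow-like pair, which the design compares first, most plasmacytoid dendritic cell genes read lower on the KA/KA array than on the WT array. Siglech was lower by 0.82 log2 units, Bst2 by 0.86, Klk1 by 1.18 and Cd209d by 1.66, while Pacsin1 was higher by 0.42. With 1 array of each genotype this difference has no replicate and no test. The median over the brightest probe set of each of the 8 genes was -0.76 (KA/KA 1 minus WT 1), beside 0.05 over all 22519 probe sets kept by the filter.

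Siglech had a signal of 1245 on the array labelled KA/KA 1 and 2217 on that labelled WT 1, a 1.78-fold higher WT signal. Bst2 had signals of 1894 and 3452, 1.82-fold higher in WT. Both genes lay in the upper part of their arrays, at percentiles 86.5 and 92.4 for Siglech and 90.9 and 95.2 for Bst2. Cd209d, a C-type lectin of the DC-SIGN family, had signals of 445 and 1445, a 3.25-fold higher WT signal. Ccr9, the receptor for the gut and thymus chemokine CCL25, also marks thymocytes and had signals of 1615 and 2455 on its brightest probe set.

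Klk1, tissue kallikrein, is a secreted serine protease with many close paralogs. Its signals were 1552 and 3526 on its brightest probe set, a 2.27-fold higher WT signal. The probe sets 1448107_x_at and 1455977_x_at were lower on the KA/KA array too, with signals of 1764 and 3553 and of 1972 and 2442. The fourth, 1460050_x_at, differed by 0.03 and read between 7.98 and 8.36 on all 5 arrays, unlike the other 3. The x in these names marks probes that can bind related transcripts, so the share of Klk1 in such signals is uncertain. Klk1b27, a paralog known from the same cells, read 9.40 on KA/KA 1 and 9.97 on WT 1.

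The remaining members have wider roles. Lair1, an inhibitory collagen receptor of many leukocytes, differed by -0.69, -0.18 and -0.52 over its 3 probe sets. Atp1b1, the β subunit of the sodium pump, differed by -0.38 on its brightest probe set and by -0.10 to -0.21 on the next 3. The fifth, 1455949_at, was below the filter and read 5.48 on KA/KA 1 and 6.85 on WT 1. Pacsin1, an endocytic adaptor that supports the interferon response of these cells, was the exception: both its probe sets were higher on the KA/KA array (0.42 and 0.29). For Ccr9, 4 of 5 probe sets were lower on the KA/KA array. The last, 1436065_at, was higher by 0.90 at levels of 6.14 and 5.24.

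Those levels are near background. The 95th percentile of the 44 olfactory receptor probe sets, genes not expected in these cells, was 6.19 to 6.44 on the 5 arrays. All 8 members lay above this level on both arrays of the marrow-like pair, each by its brightest probe set. Of the 22 member probe sets, 17 passed the filter (mean log2 signal at or above the median over all non-control probe sets). Among these 17, KA/KA 1 was below WT 1 for 15, where 45.8% of all kept probe sets were lower. A decrease of 1 log2 unit or more was found for 3 of the 17 (Cd209d and 2 probe sets of Klk1), against 1.56% of all kept probe sets. None of the 17 was higher by as much, against 2.85%. Passing the filter depends on these arrays, so the counts describe the 17 probe sets and not all members.

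**Figure D1:**
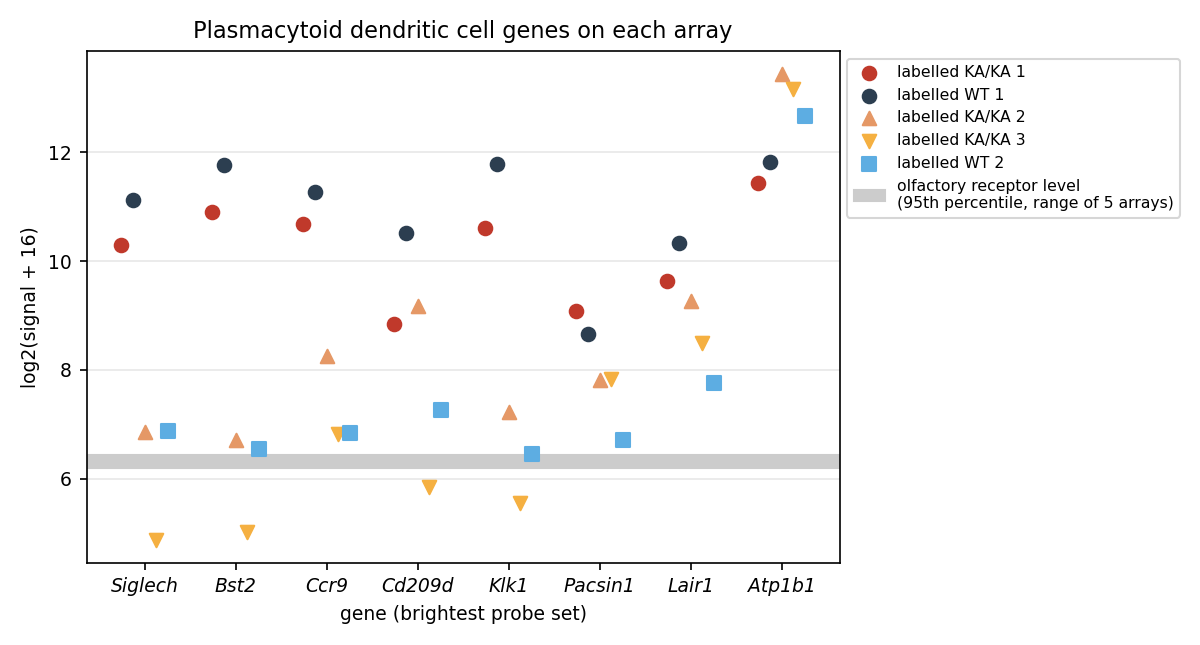
Log2(signal + 16) of the brightest probe set of each of 8 plasmacytoid dendritic cell genes, 1 point for each of 5 arrays, with the grey band spanning the 95th percentile of olfactory receptor probe sets on the 5 arrays (6.19 to 6.44). Siglech, Bst2 and Klk1 lie above 10 on the marrow-like pair and below 7.3 on the lung-like arrays, whereas Atp1b1 lies higher on the lung-like arrays.

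Other plasmacytoid dendritic cell genes split by role in the same pair, where 45.8% of all kept probe sets were lower on KA/KA 1. Of 9 regulators of the lineage, 8 were higher on KA/KA 1 and 1, Id2, was lower (-0.07), with a median difference of 0.38. The largest were Cbfa2t3, a corepressor partner of E proteins (10.85 against 10.10), and Runx1 (10.95 against 10.32). Spib (13.39 and 13.37) and Irf8 (12.79 and 12.70) were nearly level, and Tcf4 read 12.34 and 11.88. Developing B cells express most of these regulators too. Of 6 nucleic acid sensing genes measured, 4 were lower on KA/KA 1 (median -0.24), with Irf7 at 8.35 against 8.96 and Tlr7 at 9.11 against 9.59. Of 14 other genes known to be enriched in these cells, 11 were lower (median -0.31), led by Havcr1 (8.42 against 9.20) and Mzb1 (12.93 against 13.64). None of these 3 lists held a gene lower by 1 log2 unit, and Eya2, dim on both arrays (6.07 against 4.49), was the single gene higher by as much. The lists were written with earlier results of these data known.

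Genes of other cells and of the interferon response also differed in this pair, and their part in the lower Siglech, Bst2 and Cd209d signals was not tested. Of 14 interferon response genes, 13 were lower on KA/KA 1 (median -0.47), against 45.8% of all kept probe sets. Their summed signals were 4014 on KA/KA 1 and 6697 on WT 1. Rsad2 differed by -1.34 and Rtp4 by -1.09. All 7 neutrophil granule genes were lower (median -0.60, summed signals 113490 and 171908), and so were 7 of 8 T cell genes (median -0.43, 1681 and 3741). B-lineage genes were nearly level, with 6 of 11 lower (median -0.02, 71665 and 81734). Of 12 monocyte and macrophage genes 10 were higher (median 0.27, 72914 and 67880). Among 9 conventional dendritic cell genes, 4 were lower and 5 higher (median 0.14, 3768 and 4593). Cd209a, a relative of Cd209d found on conventional dendritic cells and monocytes, read 8.44 on KA/KA 1 and 9.99 on WT 1.

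On the lung-like arrays the members parted ways. Siglech, Bst2, Klk1 and Ccr9 were far below their level in the marrow-like pair, Lair1 and Pacsin1 were moderately lower, and Atp1b1 was higher. With limma on all 5 arrays, with the array set and genotype as terms and Benjamini-Hochberg adjustment over 22519 probe sets, 10 of the 17 kept member probe sets were higher in the pair and 4 were lower. Over all kept probe sets, 15.8% were higher and 19.3% lower, so a difference between these sets is common on the array. The pair lay above all 3 lung-like arrays for 11 of the 17 and below them for 4, where 32.3% and 32.2% of all kept probe sets did. The filter took the mean over all 5 arrays, so a probe set bright only in the pair could pass through the pair. These counts therefore describe the 17 probe sets and are no support for a difference of the members as a whole.

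Siglech read 10.30 and 11.12 in the pair and 6.85, 4.88 and 6.87 on KA/KA 2, KA/KA 3 and WT 2. The sets did not overlap, and the fitted difference was 4.35 ± 0.58 (SE, n = 2 and 3, adjusted p = 0.00229 by limma). Without KA/KA 1 it was 4.25 and missed the threshold. On KA/KA 3 Siglech fell below the olfactory receptor level of that array (6.44), and on KA/KA 2 and WT 2 it lay at percentiles 45.6 and 45.7.

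Bst2 followed closely, with 10.90 and 11.76 in the pair and 6.71, 5.02 and 6.54 on the lung-like arrays. Its difference was 5.11 ± 0.52 (SE, n = 2 and 3, adjusted p = 0.000905 by limma). Of 11 interferon response genes that passed the filter, none was higher in the pair and 5 were lower, against 15.8% and 19.3% of all kept probe sets. Among the 5 were Ifit3 (-2.87) and Oasl2 (-2.18). The part of interferon in the Bst2 difference was not tested. Klk1 read 10.61 and 11.79 against 7.22, 5.55 and 6.45 on its brightest probe set, a difference of 4.70 ± 0.56 (adjusted p = 0.00149 by limma over the 5 arrays). The probe sets 1455977_x_at (4.72) and 1448107_x_at (5.09) also passed the test, and 1460050_x_at (-0.17) did not.

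Ccr9 kept more signal on 1 lung-like array by its brightest probe set, 1427419_x_at, another x probe set that can bind related transcripts. Its brightest probe set read 10.67 and 11.27 in the pair and 8.26, 6.82 and 6.84 on KA/KA 2, KA/KA 3 and WT 2, all above the olfactory receptor level. The difference was 3.69 ± 0.52 (adjusted p = 0.00285 by limma over the 5 arrays), and that of 1421920_a_at was 2.91 ± 0.59 (adjusted p = 0.0109 by the same limma fit). Without WT 1 these were 3.13 and 1.80, and both missed the threshold. The latter was also 1.80 without WT 2 and was 4.40 without KA/KA 1. On KA/KA 2, KA/KA 3 and WT 2, 1421920_a_at read 7.33, 6.89 and 5.10, below the olfactory receptor level on WT 2 only. Of the 3 Ccr9 probe sets below the filter, none was above the olfactory receptor level on any lung-like array.

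Cd209d did not separate the sets. It read 8.85 and 10.51 in the pair and 9.18, 5.85 and 7.26 on the lung-like arrays, so KA/KA 2 lay above KA/KA 1. The difference of 2.15 ± 0.97 missed the threshold (adjusted p = 0.132 by limma over the 5 arrays). Single arrays moved it both ways: it was 3.12 without KA/KA 2, where it passed, and 1.33 without WT 1 or without WT 2, where it did not. The fit without KA/KA 2 holds only 1 array of each genotype in each set. Without KA/KA 1 the difference was 3.25 and missed the threshold.

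Lair1 and Pacsin1, each by its brightest probe set, stayed above the olfactory receptor level on every array. Lair1 read 9.63 and 10.32 in the pair against 9.26, 8.50 and 7.76 on its brightest probe set, a difference of 1.53 ± 0.48 (adjusted p = 0.0483 by limma over the 5 arrays). The call was lost under 8 of 14 alternatives, and without WT 1 or without WT 2 the difference was 0.75 and missed the threshold. Without KA/KA 1 it was 2.56. A second probe set, 1439067_at, differed by 2.10 ± 0.48 and passed, but missed the threshold without WT 1 or without WT 2, at 1.46. The third, 1444040_at, missed the threshold (1.08 ± 0.44). It was 0.51 without WT 1 or without WT 2, 1.84 without KA/KA 1, and 1.41 without KA/KA 2, where it passed (adjusted p = 0.00559 by limma). Pacsin1 read 9.08 and 8.67 against 7.81, 7.84 and 6.72, a difference of 1.55 ± 0.32 (adjusted p = 0.0115 by limma over the 5 arrays). Without WT 1 or without WT 2 it was 1.26 and missed the threshold.

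Atp1b1 ran the opposite way. Its brightest probe set read 11.43 and 11.81 in the pair and 13.43, 13.16 and 12.67 on the lung-like arrays, a difference of -1.43 ± 0.35 (adjusted p = 0.0203 by limma over the 5 arrays). Without KA/KA 1 it was -0.86 and missed the threshold, and without KA/KA 3 it was -1.43 (adjusted p = 0.0528 by limma). The next 3 probe sets had differences of -2.17, -1.99 and -1.05 and passed too; the smallest of these, 1418453_a_at, lost its call without KA/KA 1, without WT 1 and without WT 2, at differences of -0.92, -1.15 and -1.15. Epithelium and heart muscle also express this pump subunit. Summed lung epithelial signals were 4519 and 4853 in the pair and 198652, 218664 and 146901 on KA/KA 2, KA/KA 3 and WT 2. Summed heart muscle signals were 5468 and 6921 in the pair and 1330, 10465 and 56041 on those 3 arrays, highest on WT 2, where the brightest Atp1b1 probe set was the lowest of the 3. The part of either tissue in the Atp1b1 signal was not tested.

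**Figure D2:**
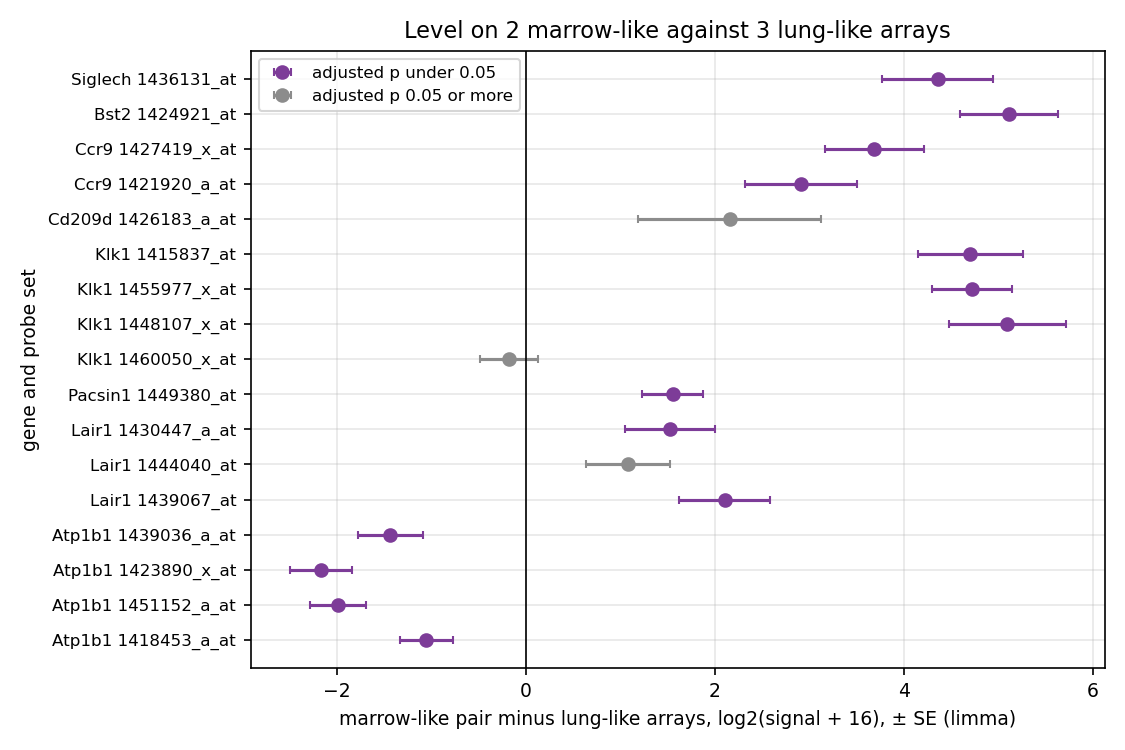
Difference between the 2 marrow-like and the 3 lung-like arrays in log2(signal + 16), with its SE from limma, for the 17 member probe sets that passed the filter. Probe sets of Siglech, Bst2, Ccr9 and Klk1 lie between 2.91 and 5.11 apart from 1 Klk1 probe set at -0.17, and the 4 of Atp1b1 lie between -2.17 and -1.05.

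The other lists of this cell type split in the same comparison, in which 15.8% of all kept probe sets were higher in the pair and 19.3% lower. Of the 9 regulators, 5 were higher in the pair and none was lower, led by Spib (4.82 ± 0.40), Bcl11a (4.49 ± 0.30), Irf8 (2.28 ± 0.26) and Runx1 (1.49 ± 0.40). Tcf4 did not pass and read 11.79, 12.03 and 12.05 on the lung-like arrays. Of 5 sensing genes that passed the filter, Tlr7 (1.65 ± 0.47) and Unc93b1, which carries these receptors to endosomes (1.25 ± 0.33), were higher. Of 10 other enriched genes that passed it, 6 were higher, including Fcrla (5.74 ± 0.40), Klk1b27 (4.47 ± 0.60) and Ly6d (3.69 ± 0.69). In this list 2 were lower, among them Cdh1, the E-cadherin of epithelia (-4.92 ± 0.31). Of 11 B-lineage genes 10 were higher in the pair, and so were 5 of 7 neutrophil granule genes. Genes bright only in the pair could pass the filter through it here too.

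Upstream sequences were read for the 4 members whose signals were lowest on the lung-like arrays relative to the pair, to show what their starts share. Each is the 250 bases before the annotated gene start in RefSeq's GRCm38.p6 table, 5′ to 3′ on the gene's own strand. Capitals mark E-boxes, CANNTG, the kind of site that Tcf4 and other E proteins bind, and in Bst2 also GAAA, any pair of bases (NN) and GAAA again, the core of interferon response elements.
Siglech, chr7:55767934-55768183, plus strand: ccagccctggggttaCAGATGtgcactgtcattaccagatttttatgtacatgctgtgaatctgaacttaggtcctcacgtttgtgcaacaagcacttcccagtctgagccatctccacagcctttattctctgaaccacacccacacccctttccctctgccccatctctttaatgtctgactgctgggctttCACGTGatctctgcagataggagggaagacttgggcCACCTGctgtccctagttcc
Bst2, chr8:71537473-71537722, minus strand: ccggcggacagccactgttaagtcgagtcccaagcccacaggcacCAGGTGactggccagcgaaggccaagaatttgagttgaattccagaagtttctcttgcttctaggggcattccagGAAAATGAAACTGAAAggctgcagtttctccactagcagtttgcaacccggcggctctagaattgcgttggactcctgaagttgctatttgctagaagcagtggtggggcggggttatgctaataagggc
Klk1, chr7:44225110-44225359, plus strand: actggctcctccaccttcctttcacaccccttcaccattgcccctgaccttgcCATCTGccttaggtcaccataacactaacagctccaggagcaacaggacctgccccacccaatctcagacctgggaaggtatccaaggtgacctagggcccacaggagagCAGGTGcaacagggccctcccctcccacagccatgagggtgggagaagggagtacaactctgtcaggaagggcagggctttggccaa
Ccr9, chr9:123766961-123767210, plus strand: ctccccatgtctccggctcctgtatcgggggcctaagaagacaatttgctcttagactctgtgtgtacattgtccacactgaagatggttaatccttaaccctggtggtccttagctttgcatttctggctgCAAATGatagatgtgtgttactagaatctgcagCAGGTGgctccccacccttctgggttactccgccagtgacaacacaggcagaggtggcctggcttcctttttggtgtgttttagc
All 9 members, Runx2 included, had such a window, and both strands were searched. CANNTG, which is its own reverse complement, occurred in 7 of the 9 and in 66.2% of all 32851 windows of this length in the table, so its presence does not set the members apart. The narrower form CAGGTG, written CACCTG on the other strand and contained in CANNTG, occurred in 4 of the 9 and in 17.2% of all windows. Those 4 were Siglech, Bst2, Klk1 and Ccr9, with its first base at -20, -205, -87 and -85 from the start. CAGCTG, another form contained in CANNTG, occurred in none of the 9 and in 13.0% of all windows. The interferon response core, GAAA, NN and GAAA, occurred in Bst2 alone among the 9, in 2 overlapping copies, and in 2.98% of all windows. A match is a description of these letters and shows neither binding nor a cause.

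Between genotypes on the lung-like arrays, most member probe sets were higher on KA/KA 2 than on WT 2, with no clear direction on KA/KA 3. KA/KA 2 was above WT 2 for 15 of the 17 kept member probe sets (median 0.99), while KA/KA 3 was above WT 2 for 9 of them (median 0.28). Over all kept probe sets 47.3% and 49.9% were higher, with medians of -0.04 and -0.001. Siglech differed by -0.02 and -1.99 on KA/KA 2 and KA/KA 3 against WT 2, and Bst2 by 0.16 and -1.52. Levels this close to the olfactory receptor level carry little order. Pacsin1 was above WT 2 on both (1.10 and 1.12), and so was Lair1 (1.50 and 0.74). Both KA/KA arrays were 1 log2 unit or more above WT 2 for 2 of the 17 probe sets, against 3.10% of all kept probe sets, and 1 unit or more below it for none, against 1.65%. For 8 of the 17, all 3 of Lair1 and 3 of Atp1b1 among them, KA/KA 1 was below WT 1 and both KA/KA 2 and KA/KA 3 were above WT 2, against 18.0% of all kept probe sets. Both lung-like differences use the same WT 2 array and are not independent, and these 8 probe sets come from few genes.

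The 2 KA/KA arrays among these differed from each other. KA/KA 2 was above KA/KA 3 by 1 log2 unit or more for 7 of the 17 kept member probe sets, where 4.55% of all kept probe sets were. Cd209d, Siglech, Bst2 and Klk1, each by its brightest probe set, were above the olfactory receptor level on KA/KA 2 (9.18, 6.85, 6.71 and 7.22) and below it on KA/KA 3 (5.85, 4.88, 5.02 and 5.55), so the size of their differences is not resolved. Ccr9, above that level on both, stood 1.44 higher on KA/KA 2 by its brightest probe set and 0.44 higher by 1421920_a_at. Pacsin1 was 0.03 lower on KA/KA 2. Genes of several other cell types differed between these arrays too. Monocyte and macrophage genes had summed signals of 108359, 73963 and 26816 on KA/KA 2, KA/KA 3 and WT 2, and 12 of 12 were above WT 2 on each KA/KA array. T cell genes summed to 4666, 9992 and 2116, with 8 of 8 above WT 2 on each, and neutrophil granule genes to 31898, 70219 and 5884. Endothelial genes ran the other way, at 12341, 35703 and 42955, as did heart muscle genes. Each of these comparisons with WT 2 rests on that single array. The part of these cells in the members' signals was not tested.

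**Figure D3:**
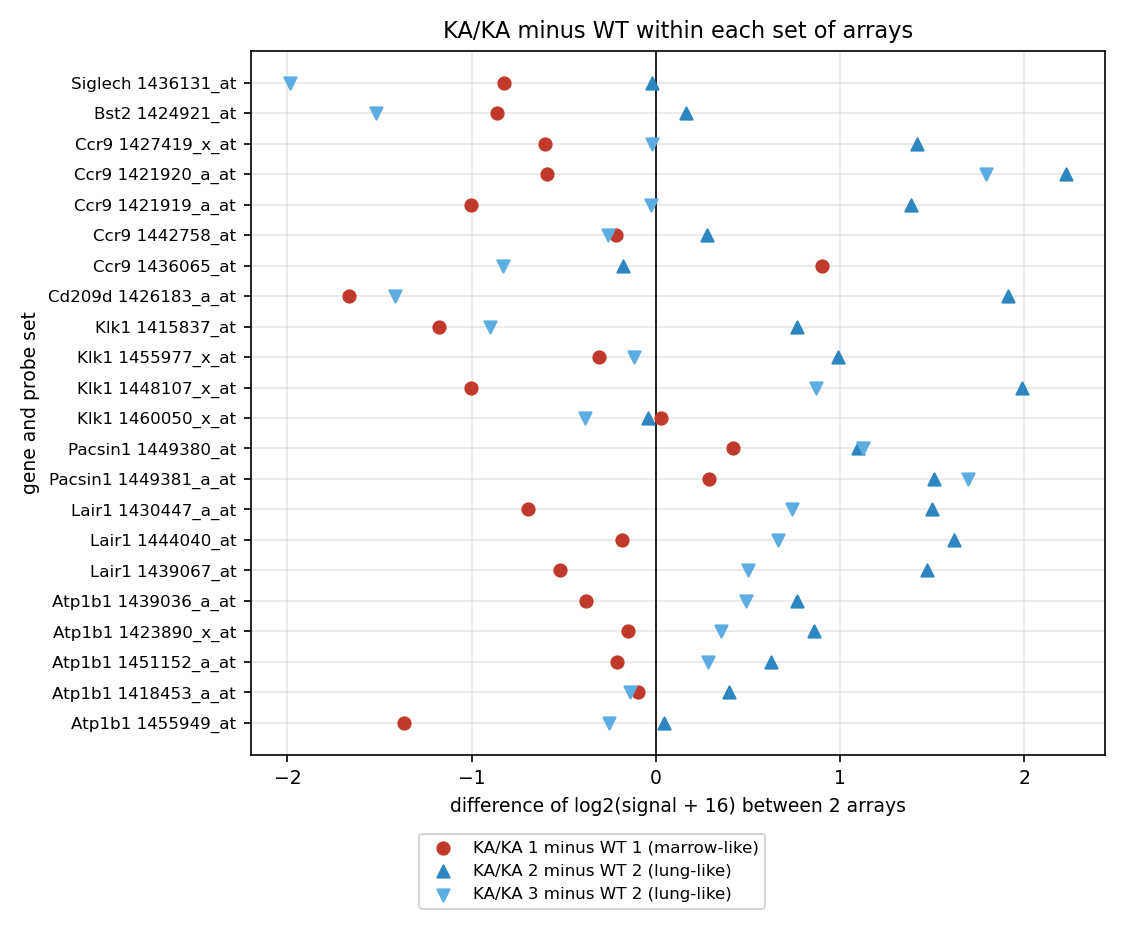
Difference in log2(signal + 16) between 1 KA/KA and 1 WT array of the same set, for all 22 member probe sets, with red circles for the marrow-like pair and blue triangles for the lung-like arrays. All 3 Lair1 probe sets lie below 0 in the pair and above 0 in both lung-like differences, and both Pacsin1 probe sets lie above 0 in all 3.

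Over all 5 arrays no member passed the test of genotype. In limma without a block, 0 of the 17 kept member probe sets were called in either direction, as were 0 of all 22519 (0% higher and 0% lower), and the smallest adjusted p was 0.9999. At an unadjusted p under 0.05 there were 0 of the 17 and 47 of all kept probe sets. Siglech differed by -1.65 ± 2.02 (KA/KA minus WT, SE, n = 3 and 2) and Bst2 by -1.61 ± 2.32. Both errors were larger than the differences, and each genotype spans both sets of arrays. No member probe set had all KA/KA arrays on one side of both WT arrays, where 3.87% of all kept probe sets were above and 3.18% below.

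With the array set as a block, limma again called 0 of the 17 and 0 of all kept probe sets (1 of the 17 and 673 of all at an unadjusted p under 0.05). Siglech then stood at -0.93 ± 0.58, Bst2 at -0.76 ± 0.52, Klk1 at -0.54 ± 0.56 and Cd209d at -0.57 ± 0.97. Pacsin1, at 0.81 ± 0.32, was the probe set at an unadjusted p under 0.05, and its adjusted p in limma was 0.9996. A miss of the threshold with so few arrays does not show equal levels. Whether the genotype difference differed between the sets was tested as an interaction in limma, which called 0 of the 17 and 0 of 22519 probe sets (2 of the 17 and 1325 of all at an unadjusted p under 0.05).

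The genes with the array profile most like that of Siglech were found by the root mean square difference of log2 profiles over the 5 arrays, each centred on its mean, among 11391 other genes. Bst2 was the closest (0.39) and Klk1 the next (0.40), followed by Ltf, the lactoferrin of neutrophil granules (0.47), the replication helicase subunit Mcm3 (0.51) and the lipid kinase Dgkd (0.59). Of the other members, Ccr9 ranked 19 (0.77), Cd209d 369 (1.30), Lair1 571 (1.45), Pacsin1 1951 (1.85) and Atp1b1 8911 (2.80). Each gene entered with its nearest probe set, and the measure includes the difference between the sets of arrays. On KA/KA 3 Siglech, Bst2 and Klk1 were below the olfactory receptor level (4.88, 5.02 and 5.55), so the order of the nearest genes is uncertain.

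**Figure D4:**
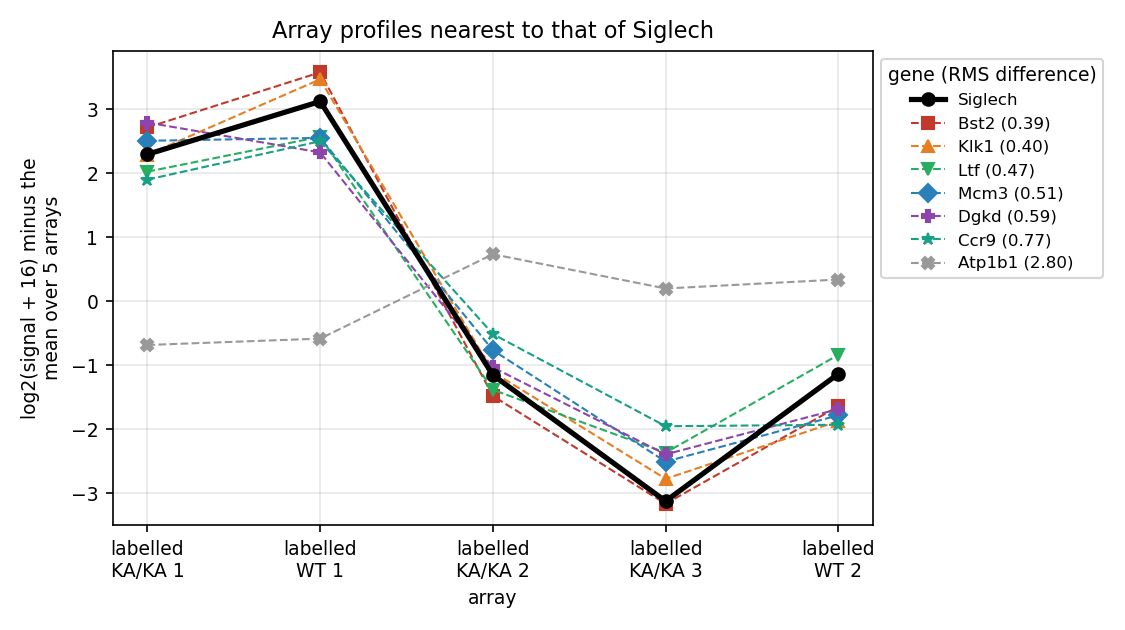
Log2(signal + 16) minus its mean over the 5 arrays for Siglech, the 5 genes with the nearest profile, Ccr9 and Atp1b1, with the root mean square difference from Siglech in brackets and lines only to guide the eye. Bst2 and Klk1 run closest to Siglech, and Atp1b1 runs the other way.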

How the data were processed

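Total RNA (150 ng) was labelled and read on Affymetrix genome arrays for the mouse, according to the protocols, per the labels. The authors deposited 1 table of linear intensity values (45101 probe sets by 5 arrays). The submitters' processing notes list MAS5, with no version. The series text speaks of a log2 transformation, but the deposited values reached 21977 to 40821 and had a trimmed mean of 500.0 on every array, so log2(signal + 16) was computed from them with no further scaling. Detection calls were not used here.

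Of the probe sets, 34945 had 1 gene symbol in the platform annotation, 932 had several and were left unnamed, 9160 had none and 64 were controls, left out. limma 3.58.1 in R 4.3.3 (lmFit, eBayes with an intensity trend, two-sided) was fitted to the 22519 probe sets whose mean log2 signal reached the median, each on its own, with Benjamini-Hochberg adjustment over all of them and a threshold of 0.05. It was tested on simulated data. Member values below the filter come from a fit without it. Array sets were defined by a median poly-A control log2 signal of 10.

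All members were named. Genes of the other lists were drawn from those past the threshold (at most 4 a list, by size) and from the 2 with the largest difference in the marrow-like pair among genes above the olfactory receptor level there. For lists of other cell types and the interferon response not all of these were named, and counts and sums stand for the rest. Tcf4, Id2, Eya2 (below that level), Ptprc, Hopx and Napsa, and the pair values of Spib, Irf8 and Klk1b27, were added after their values were seen. Members, lists and array sets were chosen with earlier results of these data known. Alternatives covered the constant, scaling, filter, probe set rule, eBayes trend, blocks and leaving out each array.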

Additional observations from a re-analysis of the deposited data

Results flagged for a closer look

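For several probe sets the KA/KA minus WT difference ran in opposite directions in the marrow-like pair and for both lung-like KA/KA arrays. Both lung-like differences were taken from the same WT 2 array. The interaction in limma, given here as the difference in the pair minus that on the lung-like arrays, passed the threshold for none of these probe sets. All 3 Lair1 probe sets showed it: -1.81 for 1430447_a_at, -1.50 for 1439067_at and -1.32 for 1444040_at, each with an adjusted p of 0.824 in limma. For Ccr9 it was -2.60 on 1421920_a_at and 1.41 on the dim 1436065_at, and for Klk1 -2.43 on 1448107_x_at and 0.24 on 1460050_x_at. For Atp1b1 it was -1.01, -0.75 and -0.66 on 1439036_a_at, 1423890_x_at and 1451152_a_at.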

How the results depend on the processing

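The median difference in the marrow-like pair (-0.76) stayed between -0.79 and -0.73 under other constants and scalings. The count of 4 members above the olfactory receptor level on all lung-like arrays did not move. These settings keep the order within each array and the level was recomputed, so that count could hardly change and is no check. Calls between the sets of arrays numbered 14 member probe sets and 7885 in all. They were 5 and 3758 with the upper-quarter filter and 6 and 4064 with 1 probe set a gene, which test fewer probe sets. Leaving out 1 array gave 8 to 16 and 3259 to 8595; the cause was not tested. No called member reversed under any alternative, and 6 of the 14 (Bst2, 3 of Klk1 and 2 of Atp1b1) kept their call in all of those run. Klk1 1460050_x_at, not called, turned to 0.0715 with quantile normalisation and 0.18 with median centring.

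The genotype fit called 0 probe sets under every alternative except the replicate block, which called 3, none of them a member. Labels share the numbers 1 and 2 between genotypes, which pairs arrays of the same set (correlation of deviations 0.87 and 0.65); with only 2 such pairs the numbers are not shown to mark a shared source. Uncalled genotype differences changed sign for 16 of the 17 member probe sets that passed the filter. With the array set as a block they were 0.14 (Ccr9 1427419_x_at), 0.39 and 0.12 (Klk1 1448107_x_at and 1455977_x_at) and 0.34 (Lair1 1439067_at). With the replicate block they were 0.41, 0.49, 0.34 and 0.48 for the same probe sets and 0.12 for Cd209d. With a constant of 1, Lair1 1439067_at stood at 0.0272. Without 1 array, values ran from -3.78 to 0.47 for Siglech, -4.22 to 1.00 for Bst2 and -2.55 to 0.69 for Cd209d. They ran from -1.79 to 2.61 and -2.69 to 1.74 for Ccr9 (1421920_a_at and 1427419_x_at), and from -0.42 to 1.53 for Pacsin1. For Klk1 they ran from -3.99 to 1.34, -3.70 to 2.78, -3.24 to 1.90 and -0.24 to 0.0737 (1415837_at, 1448107_x_at, 1455977_x_at and 1460050_x_at). For Lair1 they ran from -1.19 to 1.37, -1.49 to 1.47 and -0.53 to 1.31 (1430447_a_at, 1439067_at and 1444040_at). For Atp1b1 they ran from -0.26 to 0.67, -0.23 to 1.51 and -0.30 to 1.30 (1418453_a_at, 1423890_x_at and 1451152_a_at). The interaction was 0.12 for Bst2 (main -0.18) with a constant of 1 and -0.25 for Siglech (main 0.18) with a constant of 64. Signals near the olfactory receptor level limit the values of the dimmer member probe sets on the lung-like arrays. Of the 17 kept, 10 were above that level on all 3 of these arrays.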
